A study of Drosophila melanogaster with 58 samples.

Results

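*Drosophila* pupal wings that overexpressed E2F1, DP, CycD and Cdk4 (E2F + CycD wings) were compared between 24 h and 44 h after puparium formation (APF), to see which parts of wing maturation went ahead in wings kept in the cell cycle. The comparison rests on 4 RNA-seq libraries, 2 at each stage, chosen by their genotype and stage labels from the 24 RNA-seq libraries among 58 samples. All genes were included, and 9636 of the 17559 genes listed had enough reads to be tested. The wings were from female pupae, and all transgenic genotypes carried hs-FLP, tub>CD2>GAL4, UAS-GFP and tub-gal80TS. Control wings carried nothing more, E2F wings added UAS-E2F1 and UAS-DP, and E2F + CycD wings added UAS-E2F1, UAS-DP, UAS-CycD and UAS-Cdk4. A heat shock in young larvae removed the CD2 cassette, so that the tubulin promoter drove GAL4 only in the cells that recombined, whose share was not measured here. A shift to a higher temperature then released GAL4 before the 24 h stage. Per the paper, the pupae were kept first below and then above the standard rearing temperature. Their hours are equivalent stages at the standard temperature, converted from rates of development, and are not the actual ages. Setting them beside wild-type hours rests on that conversion. The 24 h wings were therefore already overexpressing, and the 44 h wings had done so for longer. Wild-type wings at 24, 36 and 44 h APF, 2 libraries each, served to sort genes by their normal timing.

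During these hours the wing epithelium normally completes its final cell cycle and becomes postmitotic. Each cell then extends an actin-rich hair, the apical surface is covered by zona pellucida (ZP) domain proteins and a thin envelope, and chitin with cuticle proteins is laid down beneath it. The timing of these steps follows the steroid ecdysone, whose receptor acts through a cascade of early and late response genes. The cell cycle transcription factor E2F activates genes for DNA replication and mitosis, while CycD with Cdk4 inactivates the retinoblastoma family proteins that hold E2F in check.

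Levels are given as CPM, reads scaled to library size by TMM, in replicate 1 and then replicate 2. A change is the log2 fold change of 44 h over 24 h ± a standard error (n = 2 per stage). That error is the size of the change divided by the square root of the F statistic of the edgeR quasi-likelihood test. The spread behind it was estimated over all 12 transgenic libraries. A gene was called where this test gave a Benjamini-Hochberg adjusted p below 0.05 and the change exceeded 1 on the log2 scale. A difference of change is the E2F + CycD change minus the change in control or E2F wings, tested as an interaction in the same model. The 4 E2F + CycD libraries held 13467933 to 15662597 reads on genes, and 3 reads in a library, taken as the floor, were 0.19 to 0.22 unscaled CPM. The control 44 h libraries stood apart from the other transgenic libraries: their scaling factors were 0.56 and 0.59 against 1.12 to 1.26 in E2F + CycD wings, and their replicates differed more than those of any other genotype at either stage. On library totals alone, levels in control 44 h wings would be lower, and those in E2F + CycD wings higher, than given here. Comparisons of level between these genotypes at 44 h depend on that choice. Nothing in the labels says that the replicates came from separate animals, so the p-values measure the spread between these libraries, which may be technical. Wing tissue identity was present in all 4 libraries, with the wing selector gene *vg* at 369 and 307 CPM at 24 h and 362 and 296 CPM at 44 h. A list of *vg*, *sd*, *nub*, *rn*, *hth*, *tsh*, *Ubx*, *Antp* and *Scr* holds genes that are not all specific to the wing. The summed level of these 9 patterning and Hox genes was lower at 44 h. It went from 2742 and 2701 CPM to 1846 and 1861 CPM, and in control wings from 2714 and 2840 CPM to 1826 and 1991 CPM. In whole wings, fewer cells of a type and less RNA per cell cannot be told apart.

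Of the overexpressed genes, *CycD* and *E2f1* stood above control wings at both stages. *CycD* stood at 877 and 596 CPM at 24 h and at 1771 and 1826 CPM at 44 h, against 58.8 and 60.8 and then 27.1 and 27.4 CPM in control wings. Every E2F + CycD value lay above every control value, and *CycD* rose with age (1.29 ± 0.17, adjusted p = 9.5e-05) where it fell in control wings (-1.13 ± 0.18, adjusted p = 0.00024). *Cdk4* went from 197 and 130 CPM to 474 and 413 CPM (1.44 ± 0.19, adjusted p = 9.5e-05). *E2f1* was at 1338 and 908 CPM and then at 1589 and 1976 CPM, a change of 0.67 ± 0.21 that was under the fold threshold, while control wings went from 432 and 473 CPM to 104 and 133 CPM. *Dp* was at 154 and 129 CPM at 24 h and at 86.1 and 90.7 CPM at 44 h. E2F wings held more of both, 727 to 1250 CPM of *Dp* and 3747 to 4418 CPM of *E2f1*. In the paper's genotypes, UAS-E2F1 and UAS-DP are written on a different chromosome in E2F wings than in E2F + CycD wings. The 2 genotypes thus differed in *E2f1* and *Dp* RNA as well as in *CycD* and *Cdk4*. Reads from a transgene and from the chromosomal gene cannot be told apart in these counts.

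Between 24 h and 44 h, 1322 genes rose in E2F + CycD wings (13.7% of those tested) and 1115 fell (11.6%). The same interval called more genes in the other genotypes. Control wings had 1985 genes up (20.6%) and 1573 down (16.3%), and for E2F wings the counts were 1586 up (16.5%) and 1503 down (15.6%). The 3 comparisons share no library. Of the 1985 genes that rose in control wings, 990 (49.9%) also rose in E2F + CycD wings, 944 (47.6%) were not called and 51 (2.6%) fell. Of the 1573 that fell in control wings, 616 (39.2%) fell, 928 (59.0%) were not called and 29 rose. Seen from the other side, 990 of the 1322 genes that rose in E2F + CycD wings (74.9%) rose in control wings and 1091 (82.5%) rose in E2F wings, and of the 1115 that fell, 616 (55.2%) fell in control and 726 (65.1%) in E2F wings.

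The difference of change itself was called for fewer genes. Against control wings, 769 genes had a higher change (7.98%) and 933 a lower one (9.68%), a split that turned to 2860 higher and 442 lower when libraries were scaled by their totals alone, which raised the median difference over all genes by 0.83. With control 44 h replicate 1 or 2 left out it was 1067 and 634, or 1201 and 698. Against E2F wings, 272 genes had a higher change (2.82%) and 206 a lower one (2.14%), or 912 and 131 with totals alone, and 118 and 63 without E2F 24 h replicate 2. Among the 769 genes with a higher change than in control wings, 212 rose in E2F + CycD wings, 119 fell and 438 were not called. Of the 933 with a lower change, 208 rose, 199 fell and 526 were not called.

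**Figure D1:**
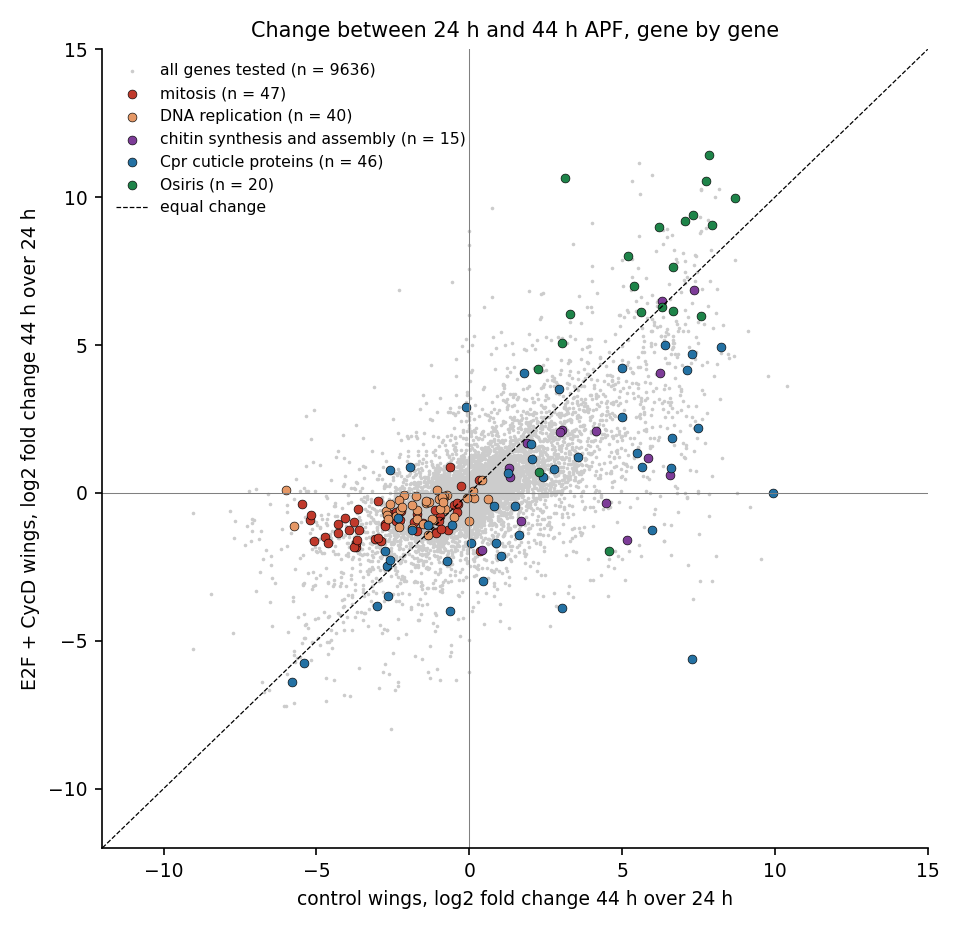
Each point is a gene, with its log2 fold change of 44 h over 24 h in control wings on the horizontal axis and in E2F + CycD wings on the vertical axis, and coloured points are members of 5 gene lists. Most Osiris genes lie on or above the line of equal change, mitosis and DNA replication genes lie left of zero in control wings and nearer to zero in E2F + CycD wings, and many Cpr and chitin genes lie well below the line.

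To place these genes in normal development, each was classed by its changes in wild-type wings, where 1330 of 8669 genes tested rose from 24 h to 36 h (15.3%) and 958 fell (11.1%), and 932 rose from 36 h to 44 h (10.8%) and 824 fell (9.51%). Genes that rose by 36 h and then held (early rise, 703 tested) mostly rose in E2F + CycD wings too: 413 were called up (58.7%) and 1 down, with a median change of 1.34 against 1.68 in control wings. Genes that rose over both intervals (continued rise, 282) were called up in 243 cases (86.2%) and down in none, but their median change was 2.82 against 4.43. The gap was wider for genes that rose only after 36 h (late rise, 514): 186 were called up (36.2%) and 22 down, against 382 up and 8 down in control wings, and the medians were 0.73 and 2.27. In this class 208 genes had a lower change than in control wings and 9 a higher one, or 137 and 46 with scaling by totals. E2F wings lay between the 2 genotypes, with 268 late rise genes up (52.1%), 7 down and a median of 1.26. Against E2F wings 44 late rise genes had a lower change and 10 a higher one. The E2F medians were 1.51 for early rise and 3.46 for continued rise.

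Genes that peaked at 36 h in wild-type wings and had come down by 44 h (transient rise, 313) went the other way. In E2F + CycD wings 154 of them stood higher at 44 h than at 24 h (49.2%) and 8 lower, whereas control wings had 76 higher and 83 lower. E2F wings had 150 higher (47.9%) and 8 lower. The medians were 1.07 in E2F + CycD, 1.05 in E2F and -0.04 in control wings. The change was higher than in control wings for 141 genes and lower for 9, or 219 and 3 with scaling by totals, and higher than in E2F wings for 16 and lower for 4. Of the genes that fell in wild-type wings, 306 of 768 in the early fall class were called down (39.8%) against 445 in control wings, 154 of 419 in the late fall class (36.8%) against 259, and 55 of 65 in the continued fall class (84.6%) against 57. In E2F wings 476, 172 and 61 genes of the early, late and continued fall classes were called down. Genes that dipped at 36 h and came back by 44 h (transient fall, 114) were called up in 10 cases and down in 29 (25.4%), against 38 and 21 in control wings and 19 and 31 in E2F wings. Their change was lower than in control wings for 41 and higher for 7, or 29 and 25 with totals, under which the median difference went from -0.77 to 0.07. Across the 8406 genes tested in both sets, the E2F + CycD change had Pearson's r of 0.73 with the wild-type change from 24 h to 36 h and 0.30 with that from 36 h to 44 h. The same values were 0.71 and 0.41 for E2F wings and 0.58 and 0.56 for control wings. These coefficients are across genes, which are not independent replicates, and the 2 wild-type intervals share the 36 h libraries.

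**Figure D2:**
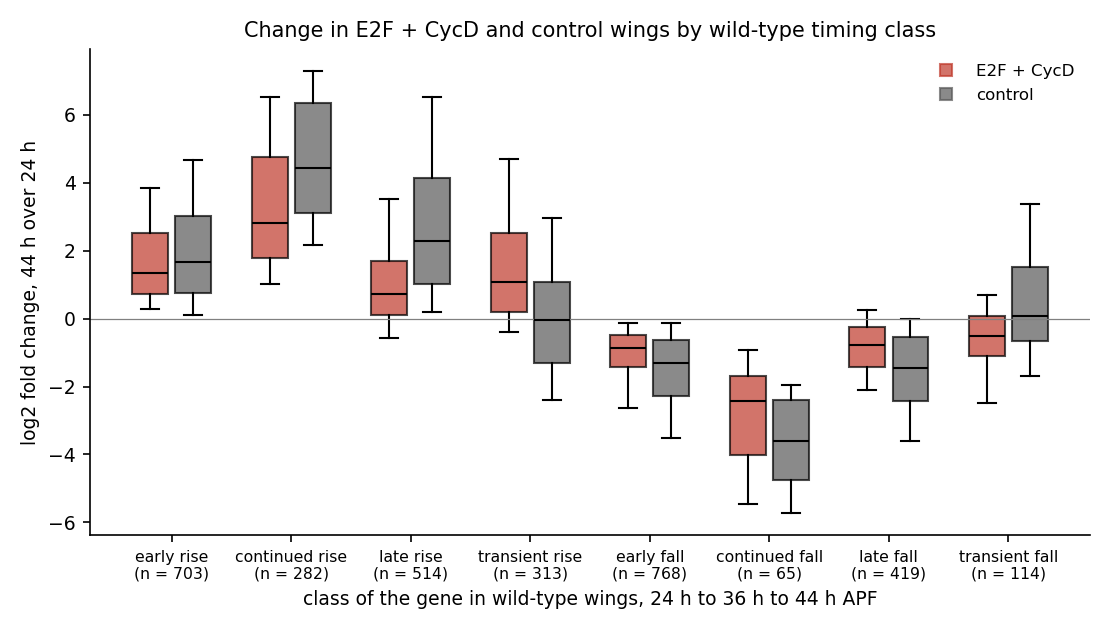
Boxes give the median and quartiles of the log2 fold change of 44 h over 24 h, and whiskers the 10th and 90th percentiles, for the genes of each wild-type timing class in E2F + CycD wings (red) and control wings (grey). The early rise boxes overlap most of their range, the late rise and continued rise medians are lower in E2F + CycD wings, and the transient rise median is 1.07 in E2F + CycD wings and -0.04 in control wings.

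Gene lists of the processes of wing maturation differed widely in how many members were called, and the plot of called shares shows the main lists beside control wings. The Osiris family rose nearly as a whole, chitin, Cpr and hair genes rose in part, and mitosis and DNA replication genes fell in fewer members than in control wings.

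**Figure D3:**
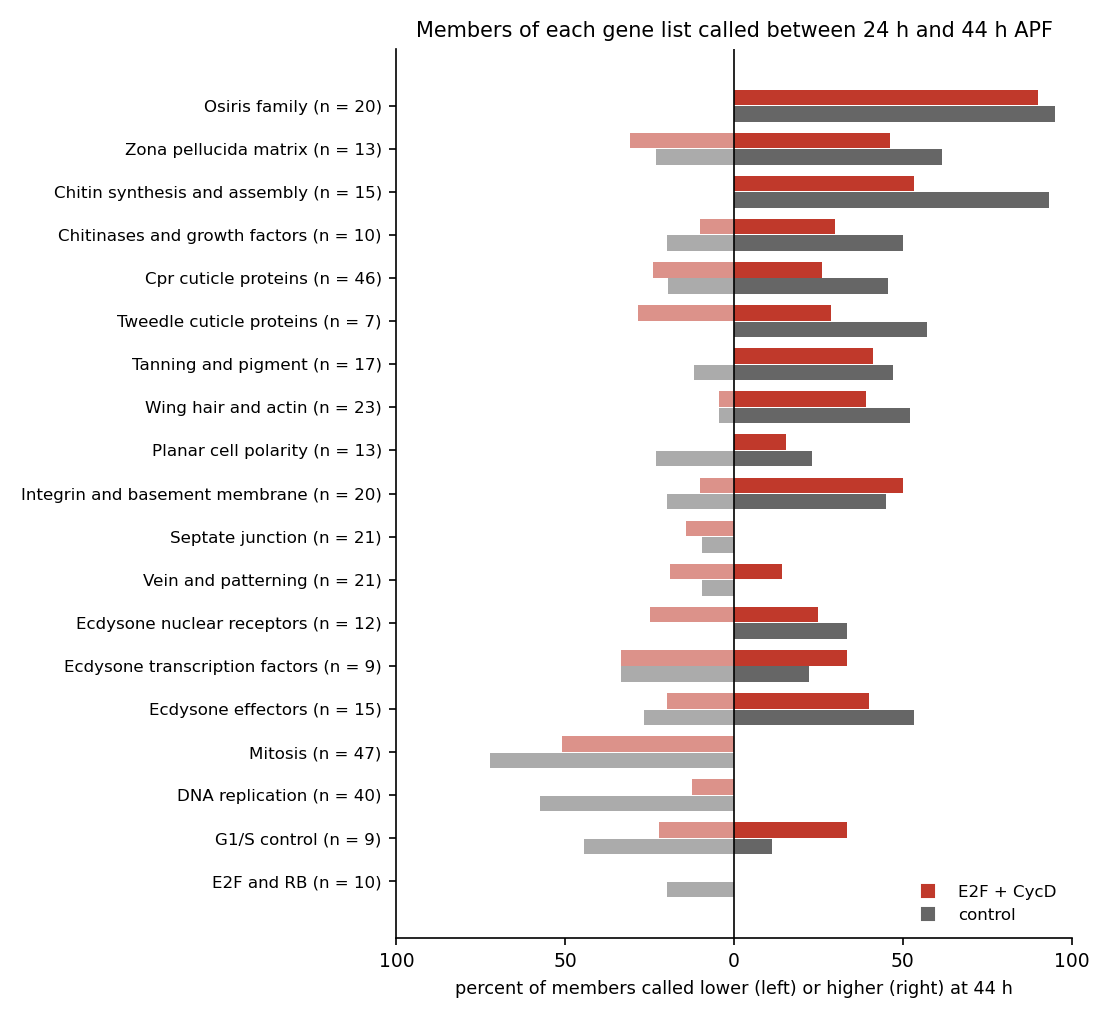
Bars show the percent of tested members of each gene list that were called higher (right, full colour) or lower (left, pale) at 44 h than at 24 h, in E2F + CycD wings (red) and control wings (grey), with the number of members tested in parentheses. Osiris genes were called up in 18 of 20 members, chitin synthesis and assembly genes in 8 of 15 against 14 in control wings, and DNA replication genes were called down in 5 of 40 against 23.

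The Osiris genes encode an insect-specific family of transmembrane proteins made by epithelia that secrete cuticle, and most of them lie in a cluster on chromosome arm 3R. They went up together in E2F + CycD wings: 18 of 20 were called up and none down, against a background of 13.7% of all genes, with changes from 4.18 to 11.43 and a median of 7.32 (all genes, -0.15). The median was 6.26 in control wings, with 19 called up, and 7.71 in E2F wings, with 20. Levels of the family were lower than in control wings at both stages. Their sum went from 142 and 134 CPM to 83172 and 71863 CPM, against 2830 and 1365 CPM and then 251527 and 271391 CPM. In E2F wings it went from 614 and 356 CPM to 109137 and 142376 CPM. Against control wings 8 members had a higher change and 1 a lower one, or 10 and 1 with scaling by library totals. *Osi8* (3R:6255175-6256602) stood at 0.23 CPM in both libraries at 24 h and at 718 and 599 CPM at 44 h, a change of 11.43 ± 0.56 (adjusted p = 5.3e-08). Control wings went from 7.30 and 2.66 CPM to 912 and 1342 CPM. *Osi3* rose from 10.4 and 8.05 CPM to 15553 and 12248 CPM, against 169 and 82.1 CPM and then 22594 and 30902 CPM in control wings. So its fold was larger in E2F + CycD wings while its level was lower at both stages. *Osi9* reached 24872 and 24335 CPM, within the control range of 15260 and 24467 CPM except for the higher replicate. The exceptions in the family were *Osi14* (0.69), which was not called, and *Osi15*, which was at or near the floor at 44 h, with 0 and 0.064 CPM.

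*Osi7* and *Osi4* rose in E2F + CycD wings but stayed far below the control level. *Osi7* reached 26931 and 21795 CPM at 44 h, where control wings held 143790 and 135230 CPM, and *Osi4* reached 503 and 416 CPM against 19233 and 20655 CPM. The reverse held for *Osi22*, a gene that peaks at 36 h in wild-type wings. It went from 2.56 and 4.03 CPM to 5156 and 5402 CPM in E2F + CycD wings and only to 41 and 65 CPM in control wings, a difference of change of 7.52 ± 0.49 (adjusted p = 1.9e-05). E2F wings held 7924 and 5135 CPM at 44 h, on either side of the E2F + CycD values.

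ZP domain proteins form the apical extracellular matrix, and the 13 tested split by member. Of these 6 were called up and 4 down (background 13.7% and 11.6%), against 8 and 3 in control wings. *dyl*, *dy* and *m* encode related ZP proteins of the apical membrane that shape the wing cell surface and its hairs. *dyl* rose from 9.03 and 6.94 CPM to 10471 and 8707 CPM (10.23 ± 0.72, adjusted p = 5.8e-07), inside the control 44 h range of 6127 to 16875 CPM. *m* rose from 3.69 and 3.09 CPM to 963 and 934 CPM, also inside the control range of 732 to 1756 CPM. Scaled by library totals alone, *dyl* and *m* would both stand above the control 44 h libraries. *dy* rose from 11.5 and 8.23 CPM to 10924 and 10867 CPM, where the control 44 h libraries held 159 and 486 CPM, so its change exceeded that in control wings by 4.53 ± 0.66 (adjusted p = 0.00055). E2F wings held 12066 and 8398 CPM of *dy* at 44 h.

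Other matrix genes of the same family were lower at 44 h or did not come on. *dpy* encodes the giant ZP protein that tethers the wing to the overlying pupal cuticle, and *pot* and *qsm* encode ZP proteins of the same kind of matrix. *dpy* went from 4268 and 4343 CPM to 1552 and 1706 CPM (-1.40 ± 0.18, adjusted p = 7.8e-05), while control wings stood at 6469 and 6849 CPM and then 7943 and 7225 CPM. *pot* fell from 742 and 593 CPM to 111 and 82.7 CPM (-2.78 ± 0.22, adjusted p = 1.6e-06) with control wings at 684 to 831 CPM throughout. The difference of change was -1.59 ± 0.26 for *dpy* and -3.00 ± 0.30 for *pot*, and *dpy* lost its call with scaling by library totals (-0.76). In wild-type wings *dpy* itself fell from 36 h to 44 h, and *pio*, a further ZP partner, fell in E2F + CycD and control wings alike (-2.31 and -3.18). *zye*, a late ZP gene, was at 1.08 and 3.21 CPM and then 4.06 and 3.01 CPM in E2F + CycD wings, with no call. The control 44 h libraries held 1951 and 1553 CPM and the E2F libraries 62.2 and 233 CPM, and *zye* differed in change from both (-6.69 ± 0.98 and -6.02 ± 1.03, adjusted p = 0.00056 and 0.0073).

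Chitin synthesis and assembly genes came on in part. Of 15 tested, 8 rose and none fell (background 13.7% up), whereas 14 rose in control and 10 in E2F wings. The median change was 1.18 against 4.15 and 2.01. *kkv*, the chitin synthase of the epidermis, rose from 247 and 195 CPM to 833 and 601 CPM (1.70 ± 0.20, adjusted p = 4.0e-05), close to the control change of 1.89 ± 0.20. *exp*, which is needed for chitin deposition, went from 4.88 and 7.88 CPM to 607 and 545 CPM (6.5 ± 0.42), and the chitin-binding protein gene *Gasp* from 9.82 and 9.28 CPM to 1159 and 1050 CPM (6.85 ± 0.39). No difference of change from control wings was called for either (0.18 ± 0.48 and -0.50 ± 0.44, adjusted p = 0.82 and 0.43). At 44 h the control wings still held more of each, 1531 and 1523 CPM of *exp* and 4621 and 6885 CPM of *Gasp*.

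Other members of the list rose less or were not called. *serp* and *verm* encode chitin deacetylases. *serp* went from 13.8 and 14.1 CPM to 32.8 and 30.2 CPM (1.18 ± 0.42, adjusted p = 0.037), whereas control wings went from 50.9 and 45.4 CPM to 3156 and 2384 CPM. *verm* was at 61.3 and 68.3 CPM and then at 57.7 and 44.1 CPM, with no call, against 3519 and 2810 CPM in control wings at 44 h. A further deacetylase gene, *Cda5*, rose from 45.1 and 62.0 CPM to 842 and 948 CPM (4.06 ± 0.29), below the control level of 8698 and 7611 CPM. In the list as a whole 7 genes had a lower change than in control wings and none a higher one, and the counts were the same with scaling by library totals. Among chitinases, *Cht7* rose as in control wings, from 35.4 and 33.8 CPM to 2141 and 1686 CPM (5.79 ± 0.26 against 6.03 ± 0.26). *Cht6* rose less, to 3552 and 3833 CPM against 40944 and 48979 CPM (difference of change -2.77 ± 0.44, adjusted p = 0.00093). *Idgf2* and *Idgf3*, which encode chitinase-like growth factors, changed by 0.57 each with no call, against 5.68 and 5.0 in control wings.

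Cpr genes encode chitin-binding cuticle proteins with a Rebers-Riddiford domain, and they did not move as a block. Of 46 tested, 12 rose and 11 fell in E2F + CycD wings (background 13.7% and 11.6%), against 21 and 9 in control wings, and the median change was -0.22 against 1.55. A first set of members was high at 24 h and fell as in control wings. *Cpr72Ea* went from 1619 and 1625 CPM to 24.0 and 14.7 CPM (-6.38 ± 0.54, adjusted p = 2.7e-06), and *Cpr12A* from 144 and 116 CPM to 3.20 and 1.60 CPM (-5.74 ± 0.50, adjusted p = 3.5e-06). Control wings changed by -5.79 ± 0.53 and -5.41 ± 0.51, and no difference of change was called for either gene.

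A further set, high in control wings at 44 h, stayed low. *Cpr50Ca* was at 0.85 and 1.63 CPM at 24 h and at 6.57 and 4.87 CPM at 44 h (2.20 ± 0.62, adjusted p = 0.013, a call lost without 24 h replicate 1 or 44 h replicate 1, at 1.81 and 1.97). Control wings reached 6053 and 5079 CPM and E2F wings 169 and 566 CPM, and *Cpr50Ca* differed in change from both (-5.30 ± 0.85 and -5.09 ± 0.88). *Cpr51A* was at 2.44 and 2.45 CPM and then 1.03 CPM in both libraries, with no call, against 253 and 76.6 CPM in control wings at 44 h (difference of change -7.24 ± 0.98, adjusted p = 0.00035). *Cpr49Ah* went from 73.6 and 131 CPM to 237 and 280 CPM (1.34 ± 0.35, a call lost without 24 h replicate 1 or 44 h replicate 2, at 0.98 and 1.21), against 10630 and 8813 CPM in control wings at 44 h. A smaller shortfall was seen for *Cpr76Bc*, which reached 2277 and 1765 CPM against 21115 and 22448 CPM and whose difference of change (-1.43 ± 0.45) fell to -0.60 with no call under scaling by totals. Over the list, 10 members had a lower change than in control wings and 2 a higher one, or 6 and 4 with totals.

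Of 7 Tweedle genes, a further family of cuticle proteins, 2 were called up and 2 down (background 13.7% and 11.6%), against 4 up and none down in control wings. *TwdlT* went from 4.49 and 2.39 CPM to 21.7 and 19.8 CPM (2.59 ± 0.37, adjusted p = 0.00016), below the control 44 h values of 287 and 238 CPM. *TwdlC* stayed near the floor in E2F + CycD wings, at 0.17 and 0.13 CPM at 44 h, where control wings held 15.1 and 24.5 CPM. In the study's own cuticle gene list, 69 of 135 tested genes rose and 21 fell (background 13.7% and 11.6%), against 92 and 17 in control wings. How that list was chosen is not given in the sources used here, so it was not taken as independent evidence.

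Tanning and pigment genes rose in 7 of 17 members and fell in none (background 13.7% and 11.6%), against 8 and 2 in control wings. *yellow-d2* rose from 3 reads over both 24 h libraries to 751 reads at 44 h, a ratio of 263 (95% counting interval 89.6 to 1277). *e* (ebony), which encodes the enzyme that joins beta-alanine to dopamine, is transient in wild-type wings. It rose from 0.34 and 0.70 CPM to 17.0 and 15.9 CPM in E2F + CycD wings (4.97 ± 0.70, adjusted p = 0.00015) and was at 0.37 and 2.47 CPM in control wings at 44 h, a difference of change of 5.20 ± 1.17 (adjusted p = 0.0075). E2F wings held 161 and 51.4 CPM of *e* at 44 h, above the E2F + CycD values, and no difference of change from them was called (-0.25 ± 1.10). *y* (yellow) was at 1.37 and 1.41 CPM at 44 h with no call. The control 44 h libraries held 1197 and 78.3 CPM of *y* and so stood far apart.

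**Figure D4:**
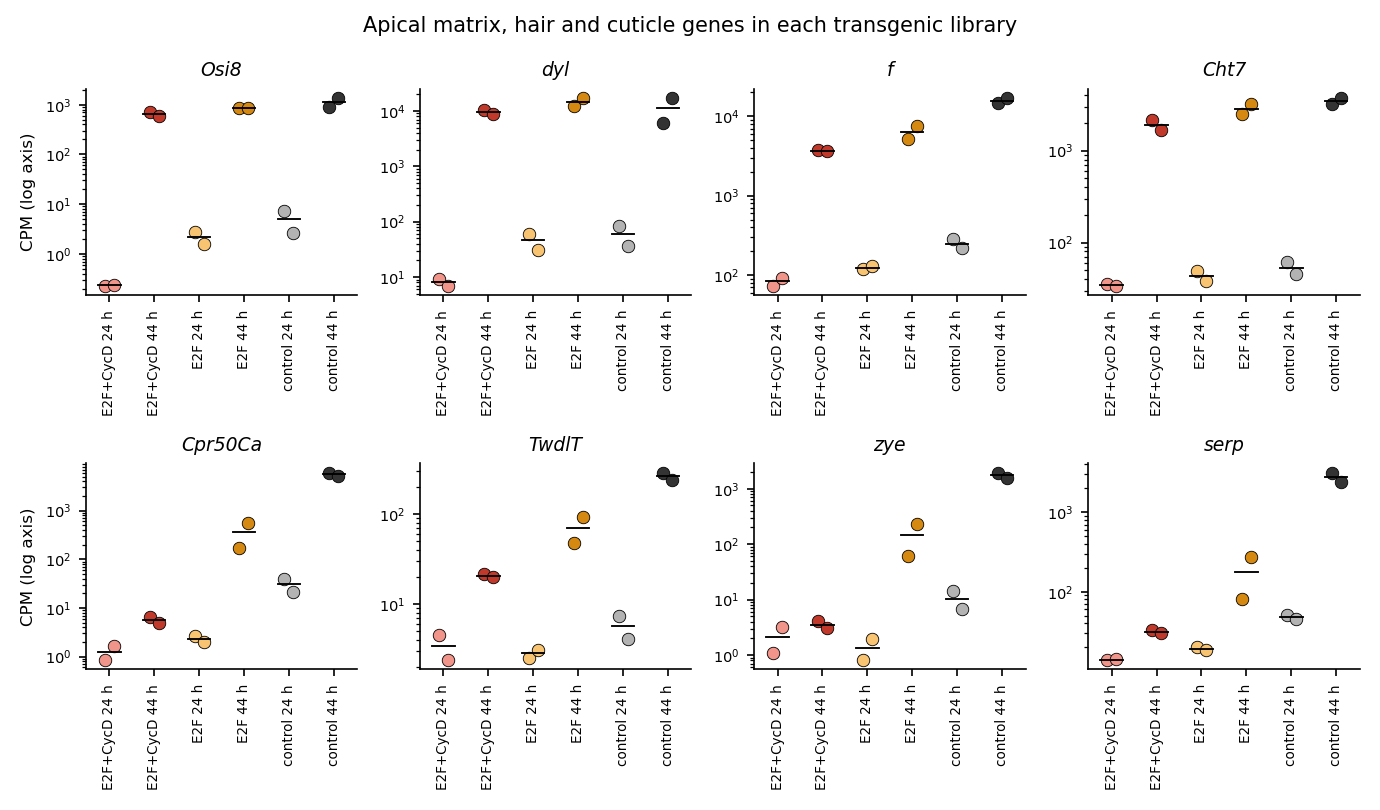
Points are TMM-scaled CPM of each library on a log axis, 2 per group, and horizontal lines their means, for 8 genes of the apical matrix, hair and cuticle in E2F + CycD, E2F and control wings at 24 h and 44 h. *Osi8*, *dyl*, *f* and *Cht7* climb in all 3 genotypes, whereas *Cpr50Ca*, *TwdlT*, *zye* and *serp* in E2F + CycD wings at 44 h stay below the E2F and control libraries of that stage.

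Genes of hair formation rose in part. Of 23 wing hair and actin genes, 9 rose and 1 fell (background 13.7% and 11.6%), against 12 and 1 in control wings. *f* (forked), which encodes an actin-bundling protein, rose from 73.5 and 93.5 CPM to 3728 and 3606 CPM (5.46 ± 0.27, adjusted p = 5.3e-08). *qua*, a villin-like gene, rose from 10.1 and 10.4 CPM to 249 and 243 CPM (4.59 ± 0.16), and *sha* (shavenoid), required for hair outgrowth, from 60.9 and 65.0 CPM to 1337 and 1308 CPM (4.39 ± 0.19). *jv* (javelin) rose from 7.15 and 8.05 CPM to 148 and 152 CPM (4.30 ± 0.31). No difference of change from control wings was called for these 4 genes, and *qua*, *sha* and *jv* reached levels near the control values of 282 and 306, 1074 and 1539, and 114 and 239 CPM. *f* was lower at both stages, with control wings at 282 and 217 CPM and then 14714 and 16761 CPM.

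Other members of the list rose less than in control wings or were not called. *Act5C*, the main cytoplasmic actin gene, rose from 2601 and 2789 CPM to 6074 and 6257 CPM (1.19 ± 0.21, adjusted p = 0.00073), while control wings reached 42427 and 35597 CPM. *chic*, the profilin gene, was at 1155 and 1362 CPM and then at 742 and 797 CPM with no call, against a rise to 6249 and 4785 CPM in control wings (2.06 ± 0.21, adjusted p = 6.5e-06). *WASp*, an activator of branched actin assembly, was at 54.9 and 53.3 CPM and then at 73.1 and 68.9 CPM with no call, against 591 and 824 CPM. The difference of change was -2.59 ± 0.30, -2.77 ± 0.29 and -3.20 ± 0.37 for these 3 genes. *sn*, the fascin gene, lay between, rising to 998 and 1029 CPM (1.92 ± 0.19) against 3609 and 4108 CPM. In the list 7 members had a lower change than in control wings and 1 a higher one, a split that flipped to 3 and 5 with scaling by library totals. E2F wings had 9 members up and 1 down. Against E2F wings 2 members had a lower change and none a higher one, or 1 and 1 with totals. The summed 44 h level of the list was 16827 and 16804 CPM in E2F + CycD wings. It was 21338 and 28518 CPM in E2F and 74077 and 71339 CPM in control wings.

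Of 13 planar polarity genes, which orient the hairs, 2 rose, near the background of 13.7%, and none fell. *mwh*, which restricts hair initiation to a single site, rose from 25.2 and 27.5 CPM to 272 and 324 CPM (3.50 ± 0.20, adjusted p = 1.5e-07), less than in control wings (4.75 ± 0.21; difference of change -1.25 ± 0.26, or -0.41 with no call under scaling by totals). *dgo* (diego) rose by 1.13 ± 0.14. The receptor gene *fz* was at 135 and 122 CPM and then at 101 and 95.2 CPM, and the cadherin gene *stan* at 470 and 516 CPM and then at 454 and 424 CPM, with no call for either.

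Genes of the ecdysone cascade moved in both directions. Of 12 nuclear receptor genes 3 rose and 3 fell (background 13.7% and 11.6%), against 4 and none in control wings. *Hr3*, an early-late receptor gene that is transient in wild-type wings, rose from 0.85 and 1.63 CPM to 93.5 and 294 CPM (7.28 ± 0.55, adjusted p = 1.1e-06), with control wings at 87.3 and 95.3 CPM and E2F wings at 96.7 and 98 CPM at 44 h. E2F wings already held 10.7 and 14.7 CPM of *Hr3* at 24 h. The E2F + CycD libraries at 44 h differed from each other by more than those of control wings. *Eip75B*, the early receptor gene E75, was at 1282 and 1411 CPM and then at 792 and 509 CPM (-1.05 ± 0.33, adjusted p = 0.021, a call lost in 6 of the 10 other settings tried). In control wings it rose from 1946 and 1963 CPM to 10588 and 12798 CPM (2.58 ± 0.34), so that the difference of change was -3.63 ± 0.47 (adjusted p = 0.00028). *Hr39* fell from 251 and 307 CPM to 80.7 and 90.6 CPM (-1.70 ± 0.16) and was not called in control wings. *EcR*, the ecdysone receptor itself, was at 629 and 647 CPM and then at 1201 and 1019 CPM, a change of 0.80 ± 0.36 with no call, and *usp*, its partner, changed by 0.73 with no call.

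Of 9 ecdysone-responsive transcription factor genes 3 rose and 3 fell (background 13.7% and 11.6%), against 2 and 3 in control wings. *Blimp-1*, a repressor that delays the next receptor gene in the cascade, was at 402 and 376 CPM and then at 587 and 847 CPM (0.88 ± 0.27, under the fold threshold), whereas control wings fell to 60.0 and 77.5 CPM and wild-type wings changed by 3.11 from 24 h to 36 h and by -6.71 from 36 h to 44 h. The difference of change was 3.72 ± 0.40 (adjusted p = 9.5e-05), and E2F wings held 759 and 402 CPM of *Blimp-1* at 44 h. *vri*, a bZIP factor gene, rose from 136 and 105 CPM to 3427 and 2777 CPM (4.69 ± 0.80, adjusted p = 0.00056), with the control 44 h libraries at 28.1 and 287 CPM, far apart from each other, and the E2F libraries at 3832 and 3369 CPM. *Eip74EF*, the early factor gene E74, rose from 328 and 282 CPM to 981 and 722 CPM (1.48 ± 0.29), against 6854 and 6371 CPM in control wings at 44 h (difference of change -2.78 ± 0.42, adjusted p = 0.00063). *Eip93F* fell from 3011 and 3272 CPM to 437 and 488 CPM (-2.76 ± 0.25), near the fall to 183 and 314 CPM in control wings.

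Among 15 ecdysone effector genes 6 rose and 3 fell (background 13.7% and 11.6%), against 8 and 4 in control wings. Genes for handling the hormone were high: *Cyp18a1*, whose product inactivates ecdysone, rose from 7.38 and 5.37 CPM to 147 and 96.1 CPM (4.25 ± 0.33), above the control 28.0 and 27.1 CPM, and *E23*, an ABC transporter gene, from 22.3 and 25.4 CPM to 250 and 238 CPM, above 98.3 and 51.4 CPM. *ImpE1* rose from 39.9 and 53.7 CPM to 2609 and 2508 CPM, against 180 and 733 CPM in control and 3993 and 3103 CPM in E2F wings. For these 3 genes no difference of change from E2F wings was called, whose 44 h values were 91.0 and 77.3 CPM of *Cyp18a1* and 371 and 246 CPM of *E23*. *ImpE2* fell from 14182 and 15319 CPM to 1914 and 1622 CPM (-3.06 ± 0.34), inside the control range of 813 to 1913 CPM for its lower replicate. *MsrA*, a late ecdysone-responsive methionine sulfoxide reductase gene, was at 13.7 and 14.5 CPM and then at 18.3 and 18.1 CPM, with no call, against 106 and 163 CPM.

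Of 20 integrin and basement membrane genes 10 rose and 2 fell (background 13.7% and 11.6%), against 9 and 4, and 5 had a higher and 2 a lower change than in control wings, or 13 and none with scaling by library totals. No difference of change from E2F wings was called. *Ilk*, which encodes integrin-linked kinase, rose from 19.5 and 20.1 CPM to 85.5 and 87.5 CPM (2.12 ± 0.13), and its partner gene *parvin* from 24.4 and 31.2 CPM to 96.6 and 97.5 CPM (1.80 ± 0.16), in step with control wings. *mys*, the beta integrin gene, rose from 241 and 302 CPM to 610 and 665 CPM (1.23 ± 0.15). *by*, the tensin gene, rose from 17.1 and 24.5 CPM to 272 and 267 CPM, above the control 46.7 and 76.6 CPM (difference of change 2.59 ± 0.34, adjusted p = 0.00028) and near the 390 and 295 CPM of E2F wings. *Mmp1*, a matrix metalloproteinase gene, fell from 407 and 441 CPM to 42.3 and 35.6 CPM (-3.44 ± 0.20), and *Mmp2* was at 274 and 307 CPM and then at 132 and 156 CPM (-1.01 ± 0.16, a call lost in 6 of the 10 other settings). Of 21 septate junction genes 3 were called down, near the background of 11.6%, and none up.

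Of 21 vein and patterning genes 3 rose and 4 fell, near the background of 13.7% and 11.6%. *vn*, a ligand of the EGF receptor, rose from 92.3 and 103 CPM to 371 and 396 CPM (1.97 ± 0.24, adjusted p = 5.2e-05) and stood at 110 and 65.2 CPM in control wings at 44 h (difference of change 2.57 ± 0.34), with E2F wings at 311 and 216 CPM. *net*, a factor that keeps intervein cells from vein fate, fell from 34.1 and 49.8 CPM to 2.0 and 3.08 CPM (-4.05 ± 0.25), with control wings at 2.57 and 2.86 CPM. Cell death genes were mostly uncalled, with 1 of 12 up and 2 down (background 13.7% and 11.6%), against 2 and 3 in control wings. Their summed level went from 1707 and 1561 CPM to 668 and 650 CPM. In control wings it went from 1217 and 1077 CPM to 1274 and 1268 CPM, and in E2F wings from 1222 and 1098 CPM to 770 and 854 CPM. *hid*, which promotes apoptosis, fell from 1094 and 922 CPM to 125 and 131 CPM (-2.98 ± 0.18), and *rpr*, with the same role, from 33.2 and 42.9 CPM to 8.74 and 14.6 CPM (-1.71 ± 0.29). *Buffy*, of the Bcl-2 family, rose from 1.08 and 1.81 CPM to 30.6 and 37.1 CPM.

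Cell cycle genes separated by phase. Of 40 DNA replication genes 5 fell and none rose (background 11.6% down), against 23 down in control and 27 in E2F wings, and the median change was -0.39 against -1.38 and -1.11 (all genes, -0.15, -0.03 and -0.16). *Mcm7*, a subunit of the replicative helicase, was at 131 and 98.2 CPM and then at 89.1 and 87.3 CPM (-0.37 ± 0.16, adjusted p = 0.079), while control wings fell from 6.59 and 6.42 CPM to 0.73 and 1.43 CPM. *Mcm2* was at 40.9 and 33.7 CPM and then at 37.6 and 31.8 CPM (-0.11 ± 0.17). *RnrL*, the large subunit of ribonucleotide reductase, was at 99.4 and 91.7 CPM and then at 55.9 and 71.6 CPM (-0.58 ± 0.16), against a fall from 5.24 and 7.28 CPM to 1.22 and 1.43 CPM in control wings. *PolE2*, of DNA polymerase epsilon, was at 13.2 and 16.5 CPM and then at 13.9 and 17.6 CPM with no call, and the control 44 h libraries held no read, so E2F + CycD wings were at least 82.9-fold higher at 44 h (floor of 3 reads over the group). Leaving out 24 h replicate 1 gave 2 members down, and leaving out 24 h replicate 2 gave 7. The members that fell were *RfC3* (-1.42), *RfC38* (-1.17), *RnrS* (-1.14), *Sld5* (-1.11) and *dUTPase* (-1.04). Against control wings 11 members had a higher change and none a lower one. The count of higher members was 29 with scaling by library totals, 7, with 1 lower, without E2F + CycD 24 h replicate 2, and 16 without control 44 h replicate 1.

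E2F binds near the start of many replication genes, and the letters TTTCCCGC, TTTCGCGC, TTTGCCGC and TTTGGCGC, taken as words for such sites and read on both strands, were searched in the 300 bases around each gene start (250 before, 50 from it; RefSeq, dm6). A word was found at 17 of 40 DNA replication genes (42.5%), 3 of 47 mitosis genes (6.4%), 2 of 22 Osiris genes (9.1%), 7 of 99 Cpr genes (7.1%) and 896 of 13944 protein-coding genes (6.4%). Among the 11 replication genes with a higher change than in control wings 6 held one (54.5%), and among the 27 mitosis genes with a higher change 1 did (3.7%), which was *stg*, against 7.5% of tested genes. The windows below are from genes whose change was higher than in control wings, from S phase and, for *stg*, mitosis, with 30 bases on the gene's strand and the word in capitals.
RnrL (chr2L:10327923-10327952, minus strand): aatgactttaaTTTGGCGCctttttgtgct
Mcm6 (chrX:6674389-6674418, plus strand): gtcagaaaaagGCGCCAAAaccgagcaaag
Caf1-180 (chrX:8606309-8606338, minus strand): cggatctattgGCGGCAAAgcgcaaccgca
stg (chr3R:29255795-29255824, minus strand): taaaagctcgcGCGCCAAAatcagtggcct
The words in *RnrL* and *Mcm6* lie 3 and 14 bases into the annotated gene, and those in *Caf1-180* and *stg* 23 and 13 bases before its start. A match is a description of the letters and not of binding.

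For the genes printed with *RnrL*, *Mcm6* was at 104 and 83.4 CPM and then at 58.7 and 66.4 CPM (-0.58 ± 0.16), against a fall in control wings from 9.05 and 8.78 CPM to 1.95 and 3.50 CPM. *Caf1-180*, of the chromatin assembly factor that loads histones behind the replication fork, was at 133 and 108 CPM and then at 135 and 124 CPM (0.11 ± 0.20), against 22.1 and 18.5 CPM and then 6.72 and 12.9 CPM. At both stages all 3 replication genes stood above every control library.

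Genes for mitosis fell more widely than replication genes but less deeply than in control wings. Of 47 tested 24 fell and none rose (background 11.6% down), against 34 in control and 39 in E2F wings. The changes of the 24 that fell ran only from -1.95 to -1.0, and the median over the list was -1.0 against -2.52 in control and -1.98 in E2F wings. *CycB*, the main mitotic cyclin gene, fell from 255 and 232 CPM to 113 and 88.7 CPM (-1.27 ± 0.16, adjusted p = 7.3e-05), while control wings fell from 39.5 and 41.1 CPM to 2.20 and 3.12 CPM and E2F wings from 136 and 124 CPM to 4.36 and 3.10 CPM. The 44 h level in E2F + CycD wings was thus above the 24 h level in control wings. *polo*, a mitotic kinase gene, fell from 167 and 165 CPM to 61.3 and 46.7 CPM (-1.62 ± 0.17), against 0.98 and 1.69 CPM in control wings and 9.46 and 7.21 CPM in E2F wings at 44 h. *pav*, whose kinesin product drives cytokinesis, was at 104 and 100 CPM and then at 57.5 and 51.1 CPM (-0.91 ± 0.20, under the fold threshold), with at most 0.24 CPM in control wings at 44 h.

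*stg*, the Cdc25 phosphatase gene that triggers entry into mitosis, was at 1251 and 1222 CPM and then at 921 and 535 CPM in E2F + CycD wings (-0.76 ± 0.35, adjusted p = 0.094, or -1.21 with a call when 44 h replicate 1 was left out). Control wings fell from 1317 and 1421 CPM to 21.0 and 54.5 CPM (-5.18 ± 0.42) and E2F wings from 1394 and 1773 CPM to 49.5 and 44.3 CPM (-5.08 ± 0.41). The 3 genotypes were thus close at 24 h and apart at 44 h, with a difference of change of 4.42 ± 0.52 from control and 4.31 ± 0.51 from E2F wings (adjusted p = 0.00015 and 0.0015). Over the mitosis list 27 genes had a higher change than in control wings and 22 a higher one than in E2F wings. The sole member with a lower change than in control wings was *asp*, a spindle pole gene, which fell from 108 and 93.8 CPM to 28.8 and 23.4 CPM while control wings held 8.10 and 5.55 CPM and then 12.3 and 4.93 CPM.

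Among regulators of entry into S phase, *CycE*, which drives S phase with Cdk2, was at 538 and 389 CPM and then at 927 and 830 CPM (0.92 ± 0.17, adjusted p = 0.00091, under the fold threshold by TMM and past it in 5 of the 10 other settings, at 1.01 with DESeq2), with control wings at 33.6 to 36.8 CPM and then at 21.7 and 26.9 CPM. Its change exceeded that in control wings by 1.46 ± 0.25 and that in E2F wings by 1.41 ± 0.24. Of 9 genes of G1/S control 3 rose, among them the transgene targets *CycD* and *Cdk4*, and 2 fell (background 13.7% and 11.6%). None of the 10 E2F and retinoblastoma family genes was called. *fzr*, whose product switches on the anaphase-promoting complex at cell cycle exit, changed by 0.35 with no call, against a rise of 2.15 in control wings. In the study's own cell cycle list, 52 of 284 tested genes fell and 2 rose (background 11.6% and 13.7%), against 139 and 8 in control wings and 168 and 2 in E2F wings. The paper took that list from an earlier analysis of cell cycle exit by its authors.

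**Figure D5:**
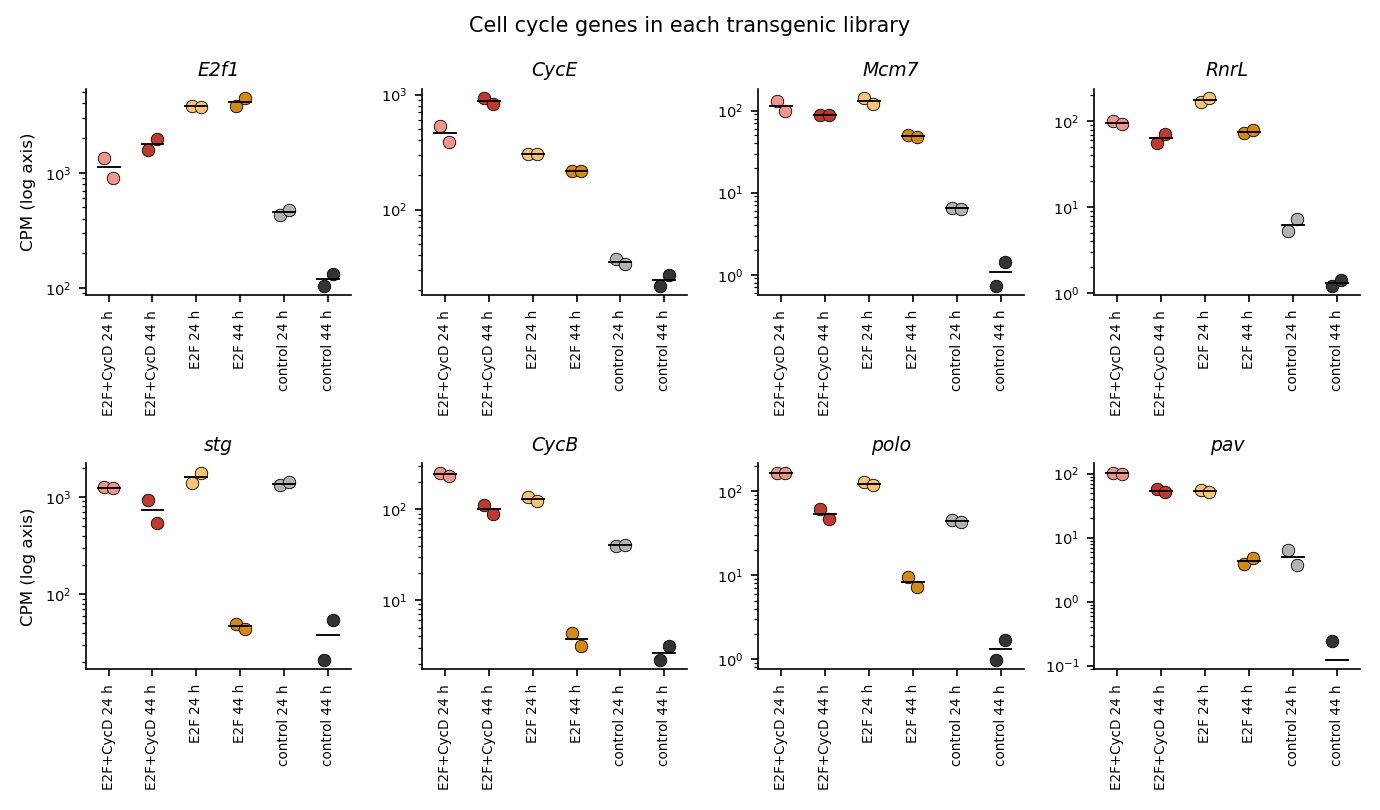
Points are TMM-scaled CPM of each library on a log axis, 2 per group, and horizontal lines their means, for 8 cell cycle genes in E2F + CycD, E2F and control wings at 24 h and 44 h. E2F + CycD libraries at 44 h lie above the control libraries of that stage for all 8 genes, and above the E2F libraries for *CycE*, *Mcm7*, *stg*, *CycB*, *polo* and *pav*. One control 44 h library of *pav* held no read and is not drawn.

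Markers of other cell types that a dissected wing can hold moved with age as well. The summed level of 13 muscle markers went from 363 and 342 CPM to 1941 and 1716 CPM, with 7 called up and 1 down (background 13.7% and 11.6%). Most of this sum was *sls*, at 182 and 186 CPM and then at 1800 and 1612 CPM. In control wings the sum went from 525 and 512 CPM to 1752 and 3339 CPM. Neuron markers summed to 333 and 337 CPM and then 447 and 423 CPM, and hemocyte markers to 87.0 and 79.5 CPM and then 102 and 73.2 CPM. Fat body markers set the 2 libraries at 24 h apart, at 450 CPM in replicate 1 and 65.7 CPM in replicate 2, against 336 and 269 CPM at 44 h. None of the 7 fat body markers was called, and all 7 were called up when 24 h replicate 1 was left out. The part of these cells in the changes above was not tested.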

How the data were processed

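RNA was measured in whole wings by stranded mRNA sequencing. Per the paper's methods and the submitters' processing notes, the authors aligned reads to dm6 with STAR and deposited raw read counts per gene made with HTSeq, one file per library, with versions and counting mode not given in the sources used here. The deposited counts of 12 transgenic libraries were fitted together in edgeR 4.0.16 (quasi-likelihood, TMM scaling, filterByExpr with count and total minimums of 10 and 15, R 4.3.3), with 1 mean per genotype and stage and no other covariate, and p-values were adjusted over all genes tested by Benjamini-Hochberg. The 12 wild-type libraries were fitted the same way and gave the timing classes. HTSeq summary lines naming no gene were left out: in E2F + CycD libraries, 8.73% to 12.0% of uniquely aligned reads lay on no gene, 1.08% to 1.18% were ambiguous, and 38.0% to 54.6% of the counted lines were not unique, so that near-identical gene copies are measured less completely. Reads on genes numbered 11201219 to 16332737 in transgenic and 1900774 to 7512920 in wild-type libraries of 24 to 44 h, and intervals and floors cover counting error only.

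Gene lists and their members were chosen with earlier results of these data known. Genes eligible to be named were key members of each list, up to 3 called members per list and direction with no overlap between stages and at least 50 reads in each library of the higher group, the 6 genes with the largest change per direction over all genes and for each difference of change, and up to 3 per timing class. Not all of them are described, and the key genes *PCNA*, *Orc6* and *Cdk1* are among those left out. *Act5C*, *Caf1-180*, *chic*, *dUTPase*, *fzr*, *Idgf2*, *Idgf3*, *Ilk*, *jv*, *Mcm6*, *Mcm7*, *Osi7*, *Osi9*, *Osi14*, *Osi15*, *parvin*, *pav*, *qsm*, *RnrL*, *serp*, *Sld5*, *usp*, *verm* and *WASp* were named after their values were seen. Alternatives were DESeq2 1.42.0, its scaling in edgeR, library totals, every gene with a read, a replicate block, only the groups compared, and each library left out. Promoter windows came from RefSeq (dm6). The steps were tested on simulated data. The FAIRE samples of the series were not used here.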

Additional observations from a re-analysis of the deposited data

Results flagged for a closer look

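The change from 24 h to 44 h differed from that of control wings by the interaction test in 769 genes with a higher and 933 with a lower change, and from that of E2F wings in 272 and 206 genes. The genes below had the largest such differences, on the log2 scale with both changes from the edgeR model. Where a group held 0 to 3 reads, the fitted value depends on the prior count and is no bound.

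Higher than in control wings, *CG17544* differed by 8.35. It stood at 2.91 and 2.50 CPM in E2F + CycD wings at 44 h and had no read in control wings at 44 h, so that it was at least 14.4-fold higher. *CG13744* differed by 7.90, going from 9.60 and 11.2 CPM to 61.1 and 84.8 CPM where control wings fell from 14.8 and 11.7 CPM to 0.37 and 0.39 CPM. *Osi22* differed by 7.52, *CG9119* by 6.68 and *PolE2* by 6.09. FBgn0029128, which has no symbol in the annotation used, differed by 6.10, rising from 450 and 590 CPM to 1925 and 2158 CPM while control wings fell from 909 and 1100 CPM to 44.5 and 71.0 CPM. Of these 6 genes, *CG13744*, *Osi22*, *CG9119* and FBgn0029128 belong to the transient rise class of wild-type wings.

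Lower than in control wings, *CG1136* differed by -10.92, with 1 read in E2F + CycD wings at 44 h against 3920 reads in control wings. *CG15322* differed by -8.04 and *mol* by -8.00, but their control 44 h libraries stood apart, at 8950 and 2963 CPM and at 389 and 84.9 CPM. *sona*, a secreted metalloprotease gene, differed by -7.46, at 6.59 and 9.86 CPM and then 4.23 and 6.41 CPM against 3025 and 2359 CPM in control wings at 44 h. *CG6280* differed by -7.44 and *TwdlC* by -7.29.

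From E2F wings, *CG5909* differed by 9.52. It had no read at 24 h in E2F + CycD wings and 634 reads at 44 h, at least 222-fold higher, against 2.53 and 3.12 CPM and then 8.86 and 8.77 CPM in E2F wings. *asRNA:CR45549* differed by 5.13, *flap* by 4.39, *Hr3* by 4.34, *stg* by 4.31 and *Dnah3* by 4.2. The differences for *CG5909*, *asRNA:CR45549*, *flap* and *Hr3* went with a 24 h level that was higher in E2F than in E2F + CycD wings, and that of *flap* came with 164 and 181 CPM at 44 h against 46.8 and 68.1 CPM. *Spn42De* differed by -8.14, with no read in E2F + CycD wings at 44 h and at least 74.6-fold more in E2F wings. *zye* differed by -6.02, *sona* by -5.71, *Cpr97Eb* by -5.64, *CG14625* by -5.46 and *Cpr50Ca* by -5.09. *CG14625* reached 13.7 and 16.2 CPM in E2F + CycD wings, 571 and 2348 CPM in E2F wings and 27806 and 23089 CPM in control wings at 44 h.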

How the results depend on the processing

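For the change within E2F + CycD wings, the counts stayed within 1.5 times of the 1322 genes up and 1115 down under every alternative run: 1432 and 956 with DESeq2, of which 1310 and 947 were shared with the edgeR calls, 1430 and 969 with its scaling, 1199 and 1379 with library totals, 1395 and 1128 with every gene, 1445 and 846 with only the groups compared, and 1166 to 1266 up and 950 to 1059 down with a library left out. The share of calls that were up moved from 54.2% to 46.5% with library totals and to 63.1% with only the groups compared. The differences of change depended on scaling. Library totals gave 2860 higher and 442 lower against control wings (86.6% higher, against 45.2%), raising the median by 0.83, and 912 higher and 131 lower against E2F wings (87.4%, against 56.9%), raising it by 0.39. All 769 higher calls and 442 of the 933 lower ones against control wings were kept. With control 44 h replicate 1 or 2 left out the higher share was 62.7% or 63.2%. With every gene kept, 433 genes had a lower change than in E2F wings. Leaving out a library gave 653 to 1201 genes with a higher change than in control wings, and 118 to 250 with a higher and 63 to 247 with a lower change than in E2F wings. DNA replication genes called down numbered 8 with library totals, 3 with only the groups compared and 2 to 7 with a library left out. Oxidative phosphorylation genes called down numbered 3 with DESeq2 or its scaling, 2 with only the groups compared and 2 to 7 with a library left out. The cause was not tested. For the 182 tested genes eligible to be named, each gene was counted once per alternative. A change within E2F + CycD wings lost its call in 65 cases and gained one in 24. A difference from control or E2F wings lost its call in 90 and 114 cases. None turned direction.

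Replicate numbers are shared between stages in the labels, but the libraries of 1 number deviated together only weakly (correlation 0.126 for E2F + CycD wings, mean 0.0436 over the 15 pairs of groups), so the samples were taken to share only a number. With the replicate block, 1314 genes rose and 1099 fell, the change was higher than in control wings for 795 genes and lower for 950, and against E2F wings for 286 and 213.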

Other observations

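The largest rises over all genes, after the Osiris and ZP genes described above, were of genes without a described role here. FBgn0037645, which has no symbol in the annotation used, rose from 0.97 and 1.11 CPM to 1644 and 1936 CPM (10.74), and *CG15888* from 1.08 and 1.28 CPM to 2052 and 1476 CPM (10.54). The largest falls were of *CG13053*, from 939 and 860 CPM to 8.0 and 4.1 CPM (-7.21), *CG34247*, from 307 and 472 CPM to 2.28 and 3.33 CPM (-7.12), and *CG15213*, from 544 and 465 CPM to 5.08 and 3.46 CPM (-6.87). *Obp99a*, an odorant-binding protein gene, had 355 reads over the 24 h libraries and 2 at 44 h, a ratio of 169 (95% counting interval 46.5 to 1401).

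Genes of growth and energy metabolism were mostly uncalled in E2F + CycD wings (background 13.7% up and 11.6% down). Of 79 cytoplasmic ribosomal protein genes 4 were called down and none up. Their median change was -0.60 (all genes, -0.15), against 0.11 in control and -0.25 in E2F wings. The summed level of this list went from 44410 and 46737 CPM to 29973 and 29478 CPM. In control wings it went from 48838 and 50324 CPM to 54561 and 53466 CPM. With scaling by library totals the median difference of change from control wings went from -0.71 to 0.12. Of 25 ribosome biogenesis genes 1 was called down, and of 68 oxidative phosphorylation genes 5 were called down and 1 up. *Myc*, which promotes growth, was at 30.5 and 37.0 CPM and then at 46.2 and 52.2 CPM with no call, and its change exceeded that in control wings by 1.05. Of the 9 patterning and Hox genes summed with *vg*, 2 fell (background 11.6%), *hth* (-1.38) and *sd* (-1.13), and none rose.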
